A study of Rattus norvegicus with 6 samples.

Results

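Enzyme genes of nitric oxide, arginine and itaconate metabolism were examined in rat myocardium after 30 min of coronary occlusion. The 8 genes, Nos1, Nos2, Nos3, Acod1, Gch1, Ddah1, Ddah2 and Ass1, were taken by their symbol from a table of 32623 Ensembl rat genes, and each symbol matched 1 row. The RNA came from rats described as wild-type and male, under ventilation with an opened chest. Sham replicate 1 had few reads on Y-linked genes, as given below. In 3 samples (ischemia) the left anterior descending artery had been tied over a PE-10 tube, with the occlusion checked by ST elevation, and 3 samples came from sham operations (sham). For sham no ligation is described, all 6 samples carry the 30 min label, and the labels do not say which part of the heart was taken. The study's methods describe reperfusion after the occlusion for its treatment experiments, and the labels name none for the sequenced tissue.

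Nitric oxide synthases turn arginine into nitric oxide and citrulline, and they need tetrahydrobiopterin as a cofactor. Argininosuccinate synthase helps to rebuild arginine from citrulline, and dimethylarginine hydrolases remove methylated arginines that block the synthases. In the heart the endothelial isoform is the main constitutive source of nitric oxide, while the inducible synthase and the itaconate enzyme aconitate decarboxylase are known from activated myeloid cells. Itaconate is made from an intermediate of the tricarboxylic acid cycle and inhibits succinate dehydrogenase.

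The libraries were deep and unequal in cellular markers. Total counts ranged from 68529126 to 79591989 per library, so that a gene with 0 reads may still lie at up to 0.0377 to 0.0438 CPM (3 counts over the total of a library, where CPM relates counts to that total), a limit for counting error only. Of 5 atrial markers (Myl7, Myl4, Nppa, Sln and Bmp10) the summed level was 49551 and 37803 CPM in sham replicates 1 and 3, and 329 CPM in sham replicate 2. In ischemia replicates 1 to 3 it was 9411, 1921 and 1187 CPM. Lung epithelial markers summed to 264 CPM in ischemia replicate 1 and to at most 9.65 CPM elsewhere. On 4 Y-linked genes 26 reads fell in sham replicate 1 and 1772 to 4366 in each of the other libraries, although male rats were described. Markers of cardiomyocytes, the defining cells of the labelled tissue, were abundant in every library, with 49360 to 71474 CPM in sham and 14356 to 36813 CPM in ischemia.

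In ischemia the genes for aconitate decarboxylase 1 (Acod1) and GTP cyclohydrolase 1 (Gch1) rose. The level, as FPKM (reads scaled to gene length and library size), went from 1.37 ± 0.210 (SD, n = 3) to 12.0 ± 7.48 (SD, n = 3) for Gch1, and Acod1 had no read in any sham library. None of the 8 genes fell past the threshold. Of the 8 genes, 7 had a mean FPKM of at least 0.5 and were tested with the quasi-likelihood test of edgeR among 13964 genes, and Nos1 lay under that minimum. Acod1 passed the minimum only through the ischemia libraries where it was high, so counts are given over the other 6 tested genes. At a Benjamini-Hochberg adjusted p under 0.05, 1 of the 6 (Gch1) was higher in ischemia and 0 were lower, where the background was 5.18% higher and 1.53% lower among all tested genes. With edgeR, 5 of the 6 had an unadjusted p under 0.05, as did 32.4% of all tested genes. In 3 of the 6 all ischemia libraries lay above all sham libraries, against 23.6% of tested genes, and in 1 of the 6 they lay below, against 15.0%. The median log2 fold change over the 6 genes was 1.91, against 0.00 over all tested genes. The calls depended on single libraries, as they did over the whole table. When sham replicate 1, 2 or 3 or ischemia replicate 3 was left out of the edgeR fit, 0 of the 13964 genes and so 0 members passed, while 3, 4, 3 and 4 of the 6 and 22.1%, 27.3%, 23.3% and 21.6% of all genes had an unadjusted p under 0.05. Without ischemia replicate 1 the edgeR fit called 4 of the 6 and 18.7% of all genes, and without ischemia replicate 2 it called 1 of the 6, Gch1, and 4.09% of all genes. In bulk tissue, more cells of a type and more RNA per cell cannot be told apart.

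**Figure D1:**
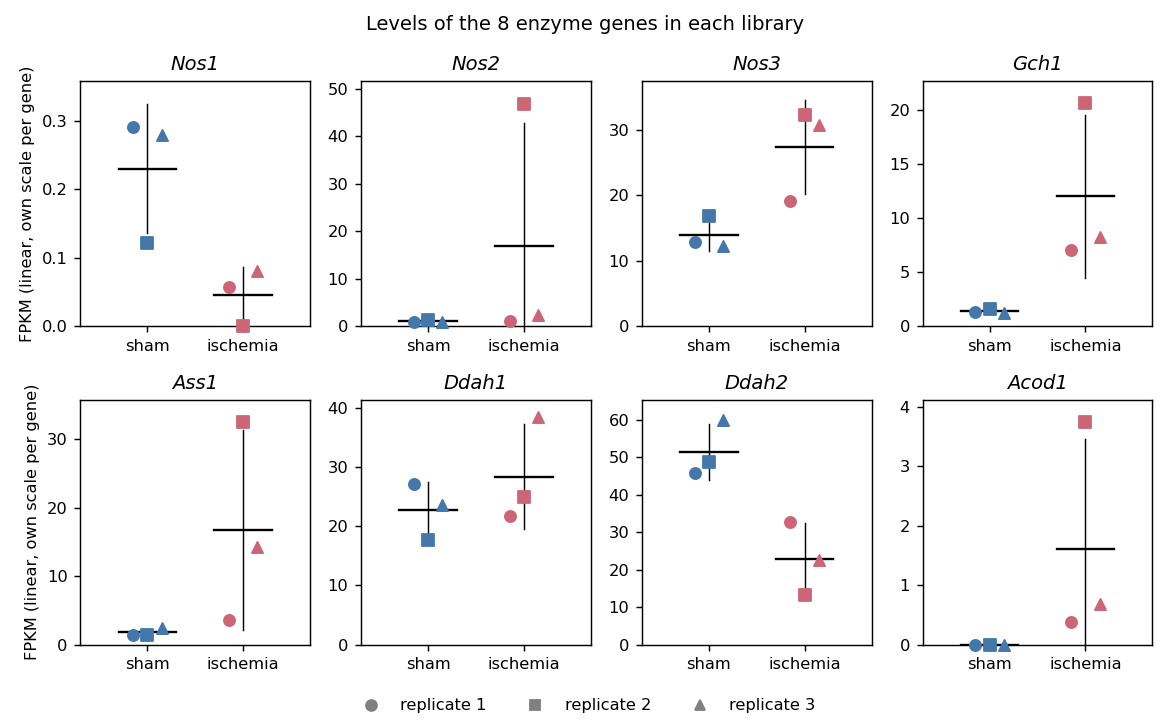
Level in FPKM (linear vertical axis, own scale for each gene) of the 8 genes in the 3 sham (blue) and 3 ischemia (red) libraries, with the symbol giving the replicate, the horizontal bar the mean and the vertical line 1 SD, drawn no lower than 0. Ischemia replicate 2 is the highest library for 5 of the 8 genes, with 46.9 FPKM for Nos2 and 32.5 FPKM for Ass1.

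Upstream sequences are shown for Acod1 and Gch1, the members past the threshold, of which Acod1 met the FPKM minimum only through ischemia. RefSeq windows were at hand for 6 of the 8 genes (Nos1, Nos3, Acod1, Gch1, Ddah1 and Ass1), in build GRCr8, and not for Nos2 and Ddah2. The 250 bases before the annotated start are printed, at chr15:86286289-86286538 on the plus strand for Acod1 and at chr15:22917413-22917662 on the minus strand for Gch1. Capitals mark matches to 1 of 8 motifs that were searched on both strands and chosen after these windows had been seen.
Acod1: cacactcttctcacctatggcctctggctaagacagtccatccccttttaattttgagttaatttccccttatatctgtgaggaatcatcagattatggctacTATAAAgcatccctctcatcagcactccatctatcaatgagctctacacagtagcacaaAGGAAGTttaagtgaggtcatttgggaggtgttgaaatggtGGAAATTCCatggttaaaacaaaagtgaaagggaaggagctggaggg
Gch1: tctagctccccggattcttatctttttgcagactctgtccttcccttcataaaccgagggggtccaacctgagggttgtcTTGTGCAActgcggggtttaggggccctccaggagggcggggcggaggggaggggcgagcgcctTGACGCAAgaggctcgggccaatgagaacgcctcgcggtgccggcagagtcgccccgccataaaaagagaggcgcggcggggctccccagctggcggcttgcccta

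The windows differed in composition. The Acod1 window had 42.4% G and C and 0 CG dinucleotides, and the Gch1 window had 64.4% G and C and 19 CG dinucleotides. In Acod1 the capitals are a TATA box match (TATAAA, position -147 with the annotated start at 0), an ETS match (AGGAAGT, -88) and a match to the kB motif of NF-kB (GGNNNTTCC, -47), which the motif's letters match in both orientations. In Gch1 they are a C/EBP match (TTGCNNAA, minus strand, -170) and a cAMP response element match (TGACGNNA, -106). None of these matches overlapped another. Of 33469 RefSeq windows, each of 250 bases before and 50 after the start, 18.3% held the kB motif, 8.41% the ETS motif, 14.2% the TATA box, 10.6% the C/EBP motif and 7.11% the cAMP response element. AP-1 (TGANTCA, in 7.33% of windows) and the hypoxia response element (ACGTG, in 19.3%) matched in Nos1 alone among the 6 genes, and the interferon gamma-activated site (TTCNNNGAA, in 8.87%) in 0 of them. A match is a run of letters and not a binding site.

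Among the synthases, the endothelial gene Nos3 held most of the RNA in sham and was higher in every ischemia library, while the inducible gene Nos2 was high in 1 library only. Nos3 (ENSRNOG00000009348, chromosome 4 from 7320668 to 7342410, minus strand in the file, whose build is not named) had an FPKM of 12.8, 16.9 and 12.2 in sham, and the ischemia libraries had 19.2, 32.3 and 30.7. The groups did not overlap, and the log2 fold change of 0.85 ± 0.31 (SE) missed the threshold (edgeR adjusted p 0.122). Over 15 alternatives it ranged from 0.70 to 1.14 with adjusted p-values from 0.0620 to 0.297, and passed in 0 of them. Of 9 endothelial markers in the table none passed. Their log2 fold changes ran from -0.52 to 0.64 but for Cldn5, at 2.59 with reads in 1 library of each group, and their summed level was 1337 to 1477 CPM in sham and 1601 to 1792 CPM in ischemia. The part of these markers in the Nos3 difference was not tested.

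Nos2 (ENSRNOG00000057443, chromosome 10 from 66189786 to 66313190, plus strand) had an FPKM of 0.824, 1.27 and 0.939 in sham and 1.16, 46.9 and 2.38 in ischemia. As counts, sham held 420, 687 and 456 and ischemia 639, 23506 and 1129. Ischemia replicate 2 stood 40.5 times above ischemia replicate 1, which lay within the sham range. The log2 fold change was 3.84 ± 1.40 (SE, edgeR adjusted p 0.122). Without ischemia replicate 2 it was 0.74 (edgeR adjusted p 0.342), and without ischemia replicate 1 it was 4.37 (edgeR adjusted p 0.0478), while DESeq2 gave no p for this gene. The table places Lgals5 on the opposite strand of the Nos2 interval.

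Nos1, the neuronal synthase, was low throughout, with 152, 67 and 139 counts in sham and 33, 0 and 39 in ischemia. In FPKM, sham averaged 0.230 ± 0.0950 (SD, n = 3) and ischemia 0.0458 ± 0.0412 (SD, n = 3) (ENSRNOG00000001130, chromosome 12 from 44213943 to 44520341, minus strand). All ischemia values lay below all sham values, and at 0 counts in ischemia replicate 2 the depth allows up to 0.0415 CPM. Fitted without the minimum, its log2 fold change was -2.28 with a 95% interval from -5.32 to 0.77 (edgeR adjusted p 0.312). Within sham, Nos1 was lowest in replicate 2, the library with the lowest atrial level (329 CPM), where 6 autonomic neuron markers summed to 8.83 CPM against 44.6 and 234 CPM in replicates 1 and 3. In ischemia these markers summed to 27.1 to 31.4 CPM, and their part in the Nos1 values was not tested. Fbxo21 overlaps the Nos1 interval on the same strand, and its reads could have been divided between the genes.

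The shares of Nos2 and Nos3 were alike in 5 of the 6 libraries. Of the summed FPKM of the 3 synthases, Nos3 held 90.9% to 92.4% in sham and 94.1%, 40.8% and 92.6% in ischemia replicates 1 to 3. Nos2 held 5.91% to 7.00% in sham and 5.67%, 59.2% and 7.17% in ischemia, so that ischemia replicate 2 stood far from the sham range and the other ischemia libraries just outside it. The ratio of Nos2 to Nos3 did not separate the groups (two-sided exact permutation p 0.7). In all, 5 ratios and sums were chosen after the levels were seen and compared, and with 3 libraries against 3 the exact p cannot go below 0.1.

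Gch1 makes the first and rate-limiting step of tetrahydrobiopterin synthesis, and it rose more evenly than Acod1, the other gene past the threshold. Its FPKM was 1.31, 1.60 and 1.20 in sham and 7.06, 20.6 and 8.27 in ischemia, with counts of 148, 193 and 129 in sham and 863, 2287 and 871 in ischemia (ENSRNOG00000011039, chromosome 15 from 23934585 to 23969011, minus strand). The groups were far apart, and the highest ischemia library exceeded the lowest by 2.91 times. The log2 fold change was 2.98 ± 0.47 (SE, edgeR adjusted p 0.0327), and it was 2.42 without ischemia replicate 2 (edgeR adjusted p 0.0322). It passed in 10 of 15 alternatives, with values from 2.31 to 3.23 and adjusted p-values up to 0.159, but 1 of the 10, a mean FPKM of at least 5, kept the gene only through ischemia and lends no support. The ratio of Gch1 to Nos3 was 0.102, 0.0946 and 0.0981 in sham and 0.367, 0.637 and 0.269 in ischemia (two-sided exact permutation p 0.1, adjusted over the 5 comparisons 0.125).

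Ass1, argininosuccinate synthase, rebuilds arginine from citrulline and was higher in every ischemia library without passing. Its FPKM was 1.45, 1.43 and 2.42 in sham and 3.55, 32.5 and 14.2 in ischemia (ENSRNOG00000008837, chromosome 3 from 10327414 to 10375826, minus strand). Its log2 fold change of 3.13 ± 0.75 (SE) came close to the threshold (edgeR adjusted p 0.0553), and was 2.32 without ischemia replicate 2 (edgeR adjusted p 0.0908). It passed in 3 of 15 alternatives, over values from 2.28 to 3.59, which were DESeq2 (adjusted p 0.000142), the fit without ischemia replicate 1 and a mean FPKM of at least 5. The last kept Ass1 only through ischemia and lends no support. Asl, argininosuccinate lyase, which follows Ass1 in that route, had an FPKM of 6.68, 6.33 and 9.09 in sham and 7.32, 30.9 and 14.6 in ischemia (log2 fold change 1.14 ± 0.48, SE, edgeR adjusted p 0.155). Without ischemia replicate 2 the log2 fold change of Asl was 0.55.

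**Figure D2:**
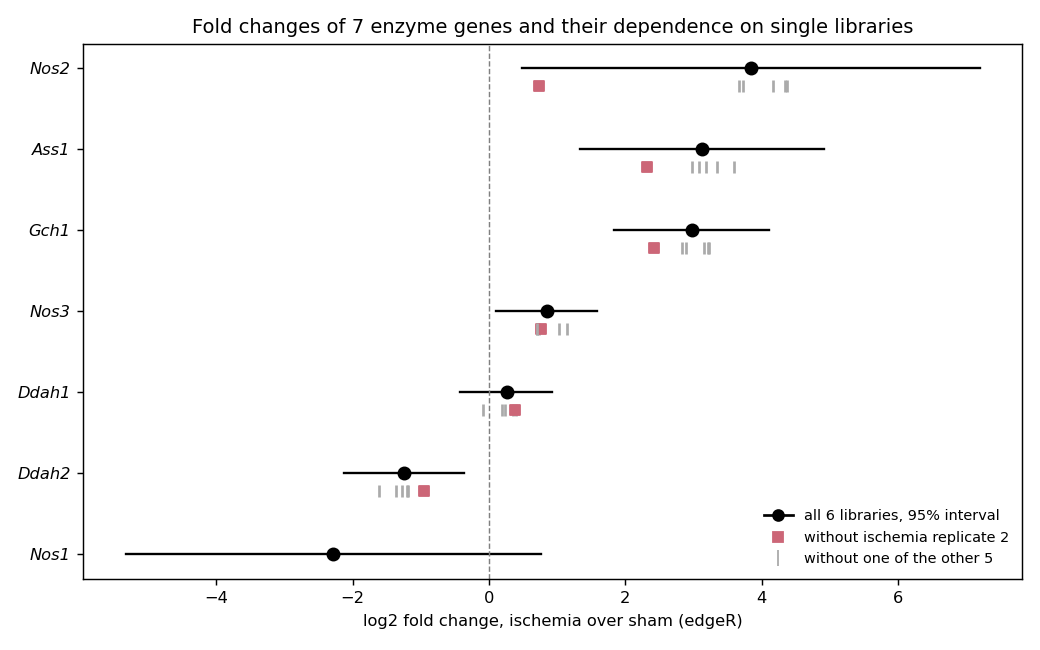
Log2 fold change (horizontal axis, ischemia over sham, edgeR) of 7 of the 8 genes, with the black point and line giving the value and 95% interval from all 6 libraries, the red square the value without ischemia replicate 2 and the grey ticks the values without each other library. Nos1 was fitted without the FPKM minimum and has no such marks, and Acod1 is left out because its sham counts were all 0. Nos2 moves from 3.84 to 0.74 without ischemia replicate 2, and Gch1 from 2.98 to 2.42.

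The dimethylarginine hydrolases were the most abundant members in sham, and Ddah2 was lower in every ischemia library. Ddah2 had an FPKM of 45.9, 48.7 and 60.0 in sham and 32.7, 13.2 and 22.5 in ischemia (ENSRNOG00000000842, chromosome 20 from 5049496 to 5052585, plus strand). No ischemia library reached the sham range, and the log2 fold change of -1.25 ± 0.37 (SE) missed the threshold (edgeR adjusted p 0.0821). It ranged from -1.61 to -0.95 over 15 alternatives and passed in 2, DESeq2 (adjusted p 0.0116) and the fit without ischemia replicate 1 (adjusted p 0.0353). Ddah1 had an FPKM of 27.1, 17.7 and 23.6 in sham and 21.7, 24.9 and 38.4 in ischemia (ENSRNOG00000014613, chromosome 2 from 251634431 to 251766014, plus strand). These values overlapped, and the log2 fold change was 0.26 with a 95% interval from -0.42 to 0.93 (edgeR adjusted p 0.544).

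The order of the hydrolases was turned in ischemia replicates 2 and 3. The ratio of Ddah1 to Ddah2 was 0.591, 0.364 and 0.394 in sham and 0.665, 1.89 and 1.71 in ischemia (two-sided exact permutation p 0.1, adjusted 0.125). Their summed FPKM was 73.1, 66.4 and 83.7 in sham and 54.4, 38.1 and 60.9 in ischemia, again without overlap. Fibroblast markers (4 in the table) summed to 1826, 1171 and 4099 CPM in sham and 1244, 544 and 519.8 CPM in ischemia, and smooth muscle markers (5) to 427, 376 and 1624 CPM in sham and 459, 123 and 184 CPM in ischemia. Both sums were highest in sham replicate 3 and overlapped between the groups through ischemia replicate 1. In Ddah2 the lowest library was ischemia replicate 2, which was also the lowest in cardiomyocyte markers (14356 CPM), and the part of these cells in the difference was not tested.

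**Figure D3:**
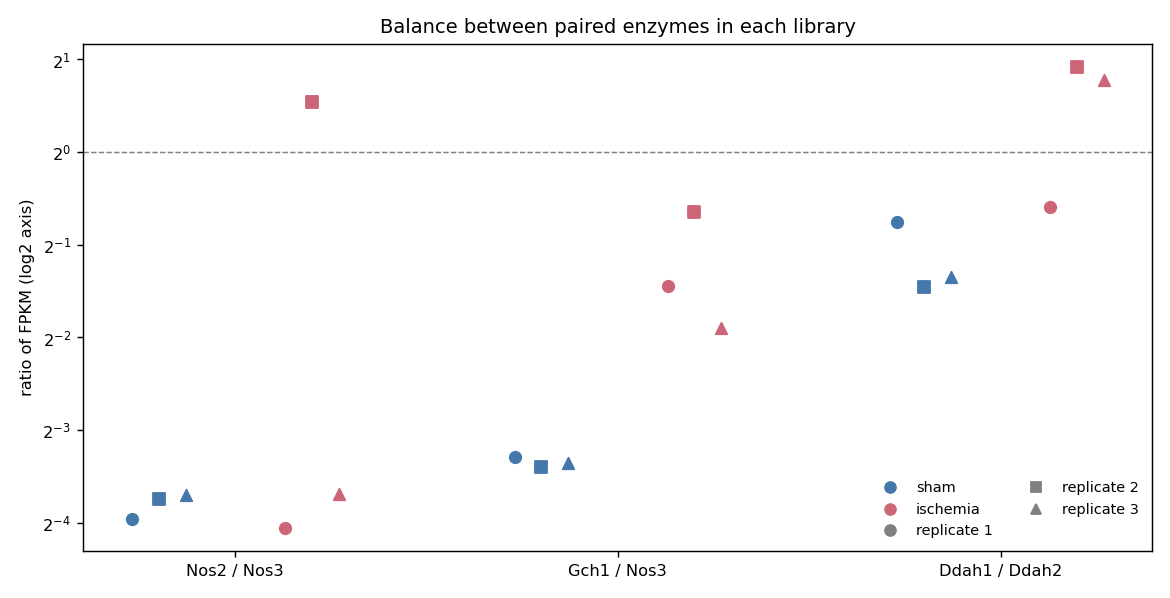
Ratio of FPKM between enzymes (vertical log2 axis, dashed line at equal levels) in each sham (blue) and ischemia (red) library, with the symbol giving the replicate. Gch1 to Nos3 and Ddah1 to Ddah2 are higher in all ischemia libraries than in all sham libraries, while Nos2 to Nos3 is at 1.45 in ischemia replicate 2 and between 0.0602 and 0.0774 in the other 5 libraries.

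Acod1 makes itaconate from cis-aconitate. It had 0 counts in each sham library and 113, 989 and 173 counts in ischemia replicates 1 to 3, or 0.387, 3.74 and 0.690 FPKM (ENSRNOG00000009919, chromosome 15 from 93612971 to 93622358, plus strand). The mean of 5.87 CPM was at least 145-fold higher than the 0.0406 CPM that 3 counts in each sham library give, and at least 48.6-fold higher without ischemia replicate 2, which held 77.6% of its counts. The edgeR adjusted p was 0.0443, and it passed in 7 of 14 alternatives (adjusted p from 2.72e-10 to 0.160). Acod1 met the filters only through ischemia, so passes in the filtered fits, the main fit included, lend no support. Where every gene with a count was tested, its edgeR adjusted p was 0.0469. In limma the adjusted p was 0.0578 on a log2(FPKM + 0.1) scale and 0.138 on a log2(FPKM + 1) scale. Mycbp2 lies on the opposite strand of the Acod1 interval with 1886 to 3752 counts, and Acod1 had none of its own in sham. Its ischemia mean of 1.60 ± 1.85 FPKM (SD, n = 3) compares with 12.0 FPKM for Gch1.

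Ordered by mean FPKM in sham, Ddah2 (51.6), Ddah1 (22.8) and Nos3 (14.0) led, and their libraries did not overlap. Ass1 (1.77), Gch1 (1.37) and Nos2 (1.01) followed, each overlapping the next. Nos1 (0.230) lay below these without overlap, and Acod1 was at 0. In ischemia Ddah1 (28.4), Nos3 (27.4) and Ddah2 (22.8) led with overlapping libraries, so their order was not resolved. Nos2 (16.8), Ass1 (16.8) and Gch1 (12.0) overlapped as well, and the libraries of Nos2 and Ass1 also overlapped those of the first 3 and those of Gch1 overlapped Nos3 and Ddah2.

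The libraries in which the called genes were high were also high in markers of neutrophils and monocytes. Of 17 such markers 15 were tested, and 11 of these reached the FPKM minimum only with the ischemia libraries, so that no count over them is given. The 4 that reached it in sham (S100a8, S100a9, Lcn2 and Itgam) were each higher, with log2 fold changes from 4.03 to 6.91 and edgeR adjusted p-values from 0.0272 to 0.0365, against 5.18% of tested genes higher. The summed level of the 17 was 17.4, 30.3 and 19.7 CPM in sham and 1283, 3478 and 787 CPM in ischemia, with Retnlg and Fpr1 at 0 in every sham library. Ischemia replicate 2 was the highest library for this sum, for 15 of the 17 markers and for Gch1, Acod1, Nos2 and Ass1. Lcn2, the neutrophil lipocalin that other cells also make, was highest in ischemia replicate 1, at 877, 126 and 310.5 CPM in ischemia replicates 1 to 3. Lcn2 was then left out, after its values had been seen. Without it the sum was 13.7 to 19.5 CPM in sham and 407, 3352 and 476 CPM in ischemia. With Lcn2 the sum was higher in ischemia replicate 1 than in replicate 3. Cd177 was also highest in ischemia replicate 1, at 3.16 FPKM, and was at 0 in ischemia replicates 2 and 3. Of the 17 markers 10 were higher in ischemia replicate 3 than in replicate 1 and 6 lower, and Acod1, Nos2, Ass1 and Gch1 were higher in replicate 3. Of 10 macrophage markers 2 were higher and 0 lower, against 5.18% and 1.53% of tested genes, and they summed to 311 to 465 CPM in sham and 428 to 695 CPM in ischemia. The part of these cells in the members' values was not tested.

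**Figure D4:**
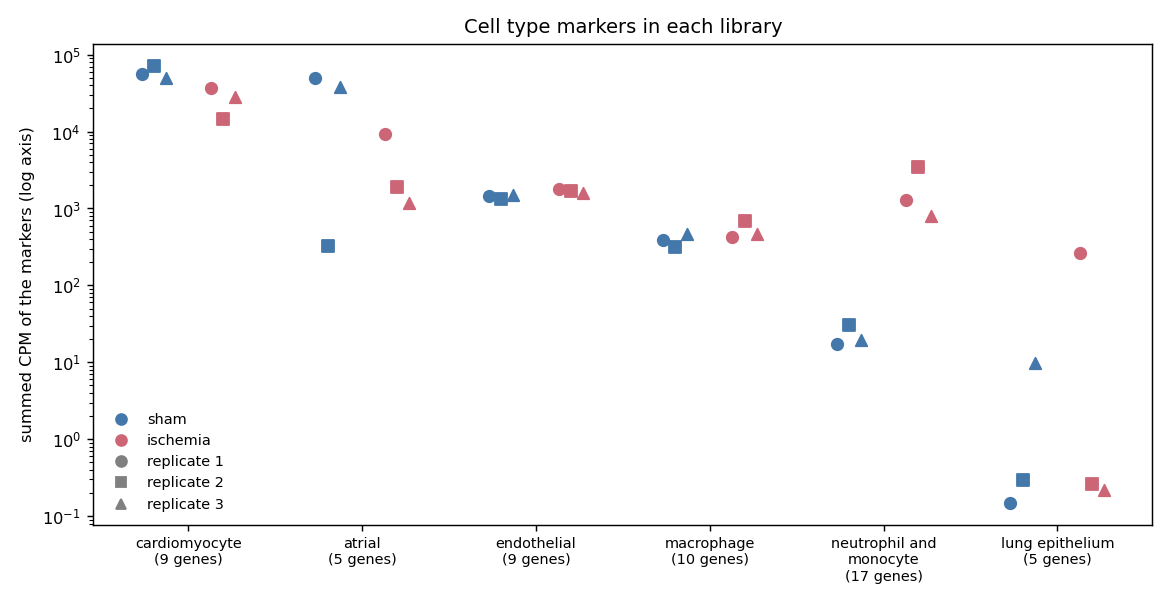
Summed level of 6 marker lists in CPM (vertical log axis) in each sham (blue) and ischemia (red) library, with the symbol giving the replicate and the number of genes under each list. Neutrophil and monocyte markers lie between 17.4 and 30.3 CPM in sham and between 787 and 3478 CPM in ischemia, macrophage sums range from 311 to 695 CPM, endothelial sums from 1337 to 1477 CPM in sham and 1601 to 1792 CPM in ischemia, and atrial and lung markers separate libraries within a group.

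For each called gene the 3 tested genes with the closest course over the 6 libraries were named, by the root mean square difference of log2(CPM + 0.5) values centred on each gene's mean. Closest to Gch1 were Osmr (0.07), the oncostatin M receptor, Slc11a1 (0.14), a metal transporter of phagocytes, and Slamf6 (0.16). Osmr had 620, 661 and 555 counts in sham and 2951, 7445 and 2982 in ischemia. Its nearly level ischemia replicates 1 and 3 follow from the way it was chosen, since Gch1 has the same course. Closest to Acod1 were F2rl2 (0.09), Bcl2a1 (0.17) and Samsn1 (0.18), on a scale on which the added 0.5 CPM sets its value in sham.

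The other genes of these pathways were read from 6 lists with 59 symbols, of which 46 were tested. Slc7a2, an arginine transporter, reached the FPKM minimum only with the ischemia libraries and is left out of the counts over the other 45. With edgeR 4 of the 45 were higher and 1 was lower at an adjusted p under 0.05, against the background of 5.18% and 1.53%, and their median log2 fold change was -0.30. All 5 calls, like every call in the table, were lost on leaving out sham replicate 1, 2 or 3 or ischemia replicate 3, where 13 to 17 of the 45 genes had an unadjusted p under 0.05 in edgeR against 21.6% to 27.3% of all genes. Without ischemia replicate 1, 14 of the 45 passed, against 18.7% of all genes, and without ischemia replicate 2, 3 of the 45 passed, against 4.09%.

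Enzymes that methylate arginine in proteins, from which free methylarginines arise, held 3 of the 5 calls. Of 9 listed genes 6 were tested, and 3 were higher and 0 lower, against 5.18% and 1.53% of all tested genes. In 5 of the 6 all ischemia libraries lay above all sham libraries, against 23.6%. Prmt3, a ribosome-associated methyltransferase, had an FPKM of 3.90, 2.94 and 3.86 in sham and 13.5, 13.2 and 13.8 in ischemia, with a log2 fold change of 1.84 ± 0.17 (SE, edgeR adjusted p 0.0246). Prmt1, the main type I enzyme, had 62.1, 57.8 and 61.5 FPKM in sham and 130.3, 135 and 127 FPKM in ischemia, and rose by 1.02 ± 0.16 (SE, edgeR adjusted p 0.0311). Prmt5, the main type II enzyme, had 13.1, 13.5 and 13.5 FPKM in sham and 26.4, 24.6 and 26.4 FPKM in ischemia, and rose by 0.86 ± 0.18 (SE, edgeR adjusted p 0.0452). These 3 genes were even across the ischemia libraries, unlike Acod1 and Nos2. Agxt2, the other enzyme that breaks down methylarginines, had 0 counts in every library.

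Among proteins that bind nitric oxide synthases, 6 genes were tested, and 1 was higher and 1 lower, against 5.18% and 1.53% of all tested genes. Cav1, the caveolin that holds the endothelial synthase inactive, fell from 189, 194 and 220.1 FPKM in sham to 94.0, 53.4 and 77.8 FPKM in ischemia (log2 fold change -1.50 ± 0.29, SE, edgeR adjusted p 0.0422). Median log2 fold changes were -1.59 for smooth muscle, -1.59 for fibroblast and 0.08 for endothelial markers. The part of these cells in the Cav1 values was not tested. Dynll1, the dynein light chain that binds the neuronal synthase and many other proteins, rose from 208, 129 and 202 FPKM to 331, 386 and 368 FPKM (log2 fold change 0.95 ± 0.19, SE, edgeR adjusted p 0.0430).

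The remaining lists held no call, where 5.18% of all tested genes were higher and 1.53% lower. In tetrahydrobiopterin synthesis and recycling 0 of 7 tested genes passed, from Spr (-0.89 ± 0.38, SE, edgeR adjusted p 0.166) to Gchfr, the feedback regulator of Gch1 (0.33 ± 0.41, adjusted p 0.587). In cGMP signalling 0 of 7 passed, with a median log2 fold change of -1.15, and 4 of the 7 were lower in all ischemia libraries against 15.0% of tested genes. The lowest was Gucy1a1, a subunit of the nitric oxide receptor, at 8.67, 3.25 and 8.39 FPKM in sham and 2.31, 0.612 and 0.978 FPKM in ischemia (log2 fold change -2.40 ± 0.59, SE, edgeR adjusted p 0.0581), and the highest Pde9a (0.25, adjusted p 0.644). Over the fits without 1 library Gucy1a1 ranged from -3.12 to -2.04 and Pde9a from 0.02 to 0.58. Median log2 fold changes were negative too for markers of atrium (-3.66), smooth muscle (-1.59), fibroblasts (-1.59), autonomic neurons (-1.31) and cardiomyocytes (-0.79). Gucy1a1 and the atrial sum were both lowest within sham in replicate 2 and highest within ischemia in replicate 1. In sham replicate 2 the atrial sum (329 CPM) lay below every ischemia library, and Gucy1a1 lay above every one. The part of these cells in the cGMP values was not tested. In arginine handling 0 of the 11 that reached the minimum in sham passed, and Slc7a2 had an adjusted p of 0.238 in edgeR. The 11 ran from Gamt (-1.46, edgeR adjusted p 0.124) to the cationic amino acid transporter Slc7a1 (1.82, adjusted p 0.0739), which had 1.74, 2.15 and 2.10 FPKM in sham and 2.81, 12.3 and 8.10 FPKM in ischemia. Odc1, which makes putrescine from ornithine, had 21.4, 22.4 and 24.7 FPKM in sham and 30.8, 89.3 and 49.1 FPKM in ischemia (log2 fold change 1.19, edgeR adjusted p 0.0900). In itaconate supply and breakdown 0 of 8 passed and all 8 had negative log2 fold changes, from -1.01 for the citrate carrier Slc25a1 to -0.39 for the succinate dehydrogenase subunit Sdhb, with overlapping groups for each. Slc25a1 had 7.75, 8.79 and 49.5 FPKM in sham and 11.4, 13.0 and 8.99 FPKM in ischemia, and its log2 fold change turned to 0.26 without sham replicate 3. That of Sdhb turned to 0.16 without sham replicate 2. The summed level of the 8 genes was 4353, 7238 and 4392 CPM in sham and 4977, 1957 and 3401 CPM in ischemia, and that of the cardiomyocyte markers 55574, 71474 and 49360 CPM in sham and 36813, 14356 and 28045 CPM in ischemia. Both were highest in sham replicate 2 and lowest in ischemia replicate 2, and the part of these cells in the values was not tested.

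**Figure D5:**
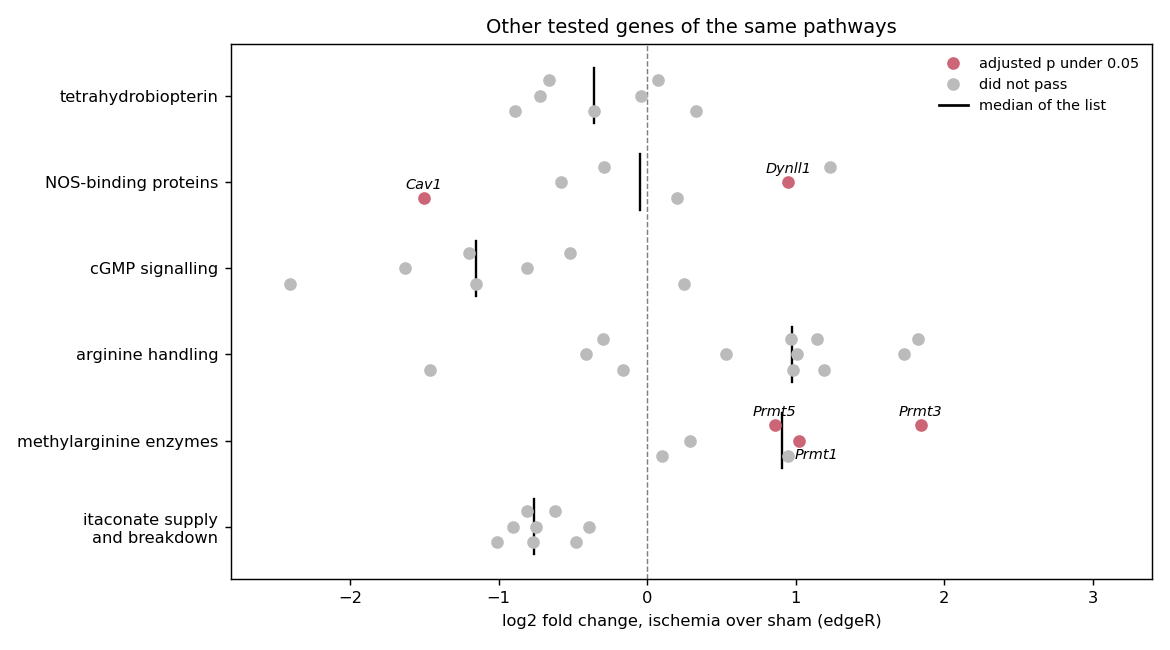
Log2 fold change (horizontal axis, ischemia over sham, edgeR) of 46 tested genes in 6 lists (rows), red where the adjusted p was under 0.05, with a black bar at each median and a vertical spread that only separates points. Prmt1, Prmt3, Prmt5 and Dynll1 lie above 0 and Cav1 below, and the itaconate list lies below 0, where Slc25a1 turns to 0.26 without sham replicate 3 and Sdhb to 0.16 without sham replicate 2.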

How the data were processed

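Libraries were made from total RNA with a stranded kit (TruSeq Stranded Total RNA). The authors deposited 1 table with raw counts and FPKM for each gene and library, in which genes without reads have an FPKM of 0.0001, treated here as 0. STAR and HTSeq are named in the submitters' processing notes, and versions, counting options and the build were not given in the sources used here. Values of overlapping genes are therefore uncertain. Counts of the genes whose FPKM averaged 0.5 or more across all 6 libraries were scaled by trimmed means of M-values and tested in edgeR (quasi-likelihood, two-sided, Benjamini-Hochberg, threshold 0.05) with no covariate. Standard errors come from the F statistic. Single ratios had exact permutation tests. Alternatives were 2 other scalings, DESeq2, limma on log2(FPKM + 0.1) and log2(FPKM + 1), 3 other filters, the replicate number as a block and each library left out. The edgeR script was checked on simulated counts.

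The members and lists were chosen with earlier results of these data known. Of the 10 genes the rule takes, 2 are not reported here, and the counts of members leave them out. By the rule for naming, the text gives the members, the called genes or the extremes of each list, and 3 genes of like course per called member. Asl, Odc1, Slc7a2, Agxt2 and the marker genes named were added after their values were seen. Labels name separate rats only by replicate number, so p-values measure the spread between these samples. Models ran in R 4.3.3 with DESeq2 1.42.0, limma 3.58.1 and edgeR 4.0.16, and the plots in matplotlib 3.10.9 under Python 3.11.15.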

Additional observations from a re-analysis of the deposited data

How the results depend on the processing

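DESeq2 gave 2071 higher and 1742 lower genes, 4 members (Acod1, Gch1, Ddah2 and Ass1) and 17 pathway genes, with 27.3% of all genes called, against 723, 214, 2, 5 and 6.71% in edgeR. Scaling to total counts gave 83 lower genes. Testing every gene with a count gave 493 higher genes, 93 lower genes and 2 pathway genes, with 2.85% of all genes called. In limma on log2(FPKM + 0.1) and log2(FPKM + 1) 1 member, Gch1, passed, with 7.96% and 6.20% of all genes called. Over the 6 fits that each left out 1 library, higher genes ranged from 0 to 1490, lower genes from 0 to 1115, members, Acod1 included, from 0 to 5 and pathway genes from 0 to 14. With the replicate number as a block 0 higher genes, 0 lower genes, 0 members and 0 pathway genes passed in edgeR. In that fit 3349 genes (24.0% of those tested) and 4 of the 6 tested members other than Acod1 had an unadjusted p under 0.05. Same-numbered libraries had correlations of deviations of -0.0701, -0.157 and -0.194, so the numbers were not taken as pairs. Of the 7 tested members 6 had the same direction under all alternatives that tested them, and Ddah1 ranged from -0.08 to 0.40 over the fits without 1 library, with the negative value without ischemia replicate 3. The cause of these shifts was not tested. There were 3 libraries a group, and the parts of count depth and of the spread between libraries in the precision were not separated.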

Other observations

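A few listed genes had values that jumped between libraries of 1 group. Aldh18a1, which makes a precursor of ornithine and proline, had 3.84, 0.0641 and 3.68 FPKM in sham and 4.86, 8.92 and 1.42 FPKM in ischemia. Cldn5, a junction protein of endothelial cells, was listed at 0 in sham replicates 1 and 3 and in ischemia replicates 2 and 3, with 3.11 FPKM in sham replicate 2 and 22.7 FPKM in ischemia replicate 1.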
